A study of Mus musculus with 2 samples.

Results

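Synaptotagmins are membrane-trafficking proteins that carry a pair of C2 domains, and most are anchored in vesicle or plasma membranes by a transmembrane segment near the amino terminus. In those that bind calcium, aspartates in the loops at the tip of each C2 domain hold the ions, and binding drives the loops into the membrane while the protein engages the SNARE complex. In hippocampal neurons Syt1 is the known sensor of fast transmitter release, Syt7 is known for slower, asynchronous release and facilitation, and several other members do not act as calcium sensors.

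The members described here are 10 genes found by symbol in the gene table and in both transcript tables of each library: Syt1, Syt2, Syt3, Syt4, Syt5, Syt7, Syt9, Syt11, Syt13 and Syt17. All 10 were found, out of 55536 annotated genes. The data are total RNA of the hippocampus from male 5xFAD/CAST mice aged 8 to 10 months, in 2 libraries that are replicates 1 and 2 of 1 group. 5xFAD mice carry transgenes with mutations of familial Alzheimer disease under a Thy1 promoter, which acts in neurons, and the strain label joins this line with CAST. Both libraries had the transgenic strain, and mice without it were not analysed here, so no comparison between conditions was made. The labels give both libraries the same donor identifier. Every SD below is therefore the spread of 2 samples and may be of technical origin, and every p-value sets the difference between the libraries against counting error alone.

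The libraries held 26128897 expected counts in replicate 1 and 28689423 in replicate 2, so that 1 count was worth 0.0383 and 0.0349 CPM, the count scaled to depth. The tissue label was matched by Wfs1, a marker of CA1 pyramidal cells, with 57.4 and 63.7 TPM, and by Prox1, a marker of dentate granule cells, at 25.9 and 31.2 TPM. TPM is a level scaled for transcript length and depth, and all comparisons between genes below use it. The libraries stood apart in some cell type markers. All 8 striatal markers were higher in replicate 1, with a summed level of 211 TPM against 78.8 TPM in replicate 2, and so were all 9 choroid plexus markers, with 60.02 TPM in replicate 1 against 14.5 TPM in replicate 2. All 5 excitatory neuron markers were higher in replicate 2, with a sum of 2166 TPM in replicate 1 and 2531 TPM in replicate 2. No marker of these 3 lists was at 0.

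The members are set apart by a short stretch of the first C2 domain. Shown are 30 coding bases of the leading transcript around the codon that aligns with a calcium-binding aspartate in the third loop of Syt1. This codon is in capitals. The bases are from GENCODE M21 transcripts, 5′ to 3′, on mm10.
Syt1: atggctgtgtatGATtttgaccgcttctcc
Syt2: atggcaatctatGACtttgaccgcttctct
Syt9: ttctctgtgtatGACtttgacaggttctct
Syt3: ttcagcgtctatGACttcgaccgcttctcg
Syt5: atggcggtgtatGACtttgatcggttctcc
Syt7: ctccaggtcctgGATtatgaccgtttcagc
Syt17: ctcactgtggtgGATtttgacaaattctcc
Syt11: ttcctggtgctcAGCtttgatcgattctct
Syt13: ctcaccctgcgcACCtgtgaccgcttctcc
The capital codon encodes aspartate in 7 of the 10 members. It encodes serine in Syt11 and also in Syt4, whose bases are not shown, and neither of these residues in Syt13. The 3 members without the aspartate codon held 31.8% of the summed member TPM in replicate 1 and 30.8% in replicate 2.

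All 10 members reached a TPM of at least 1 in both libraries, as did 60.3% of the 22015 protein-coding genes of the nuclear chromosomes. Their summed level was 951 TPM in replicate 1 and 1039 TPM in replicate 2. The members spanned a wide range, from Syt1 at 386 ± 32.9 TPM to Syt9 at 3.19 ± 0.559 TPM (SD, n = 2), a ratio of 101 in replicate 1 and 147 in replicate 2. The order of their levels was Syt1, Syt11, Syt7, Syt5, Syt13, Syt4, Syt3, Syt17, Syt2 and Syt9. In each of the 9 neighbouring pairs of this order the 2 libraries of the higher gene lay above both libraries of the lower one. In bulk tissue, fewer cells of a type and less RNA per cell cannot be told apart.

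**Figure D1:**
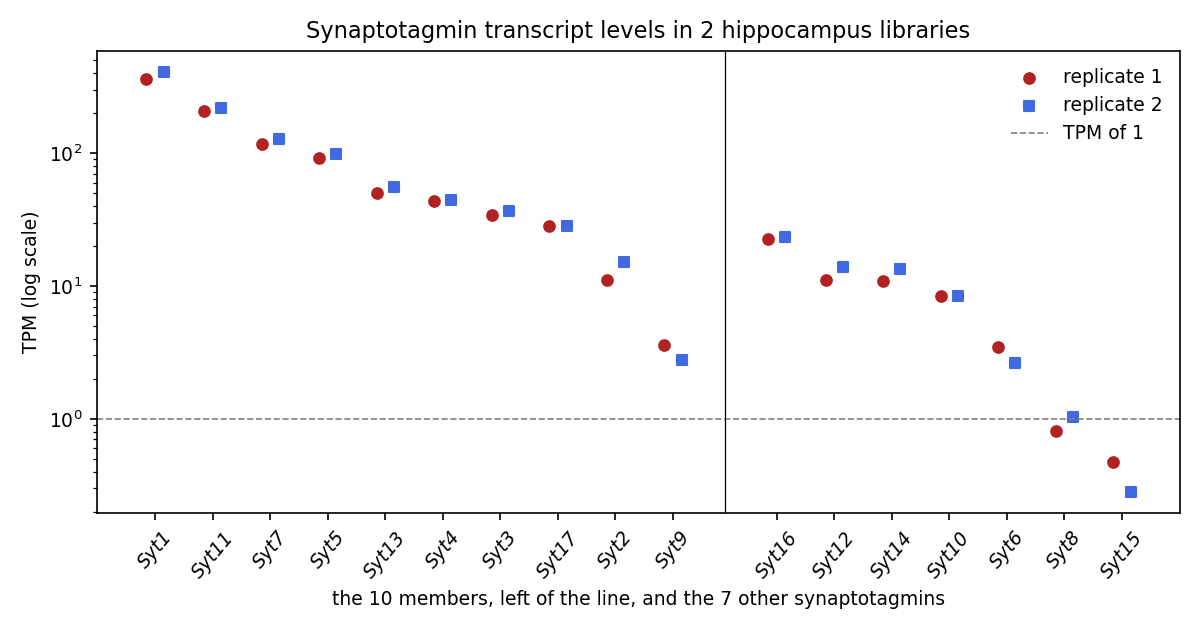
TPM on a log axis of the 10 members and of the 7 other synaptotagmins, with replicate 1 as circles left of replicate 2 as squares, and a dashed line at a TPM of 1. The members run from Syt1 at 386 TPM to Syt9 at 3.19 TPM with no overlap between neighbours, and Syt8 and Syt15 are the genes with a library under the line.

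Syt1, Syt2 and Syt9 are the members known as sensors of fast, synchronous release, and they together held 39.7% of the summed member TPM in replicate 1 and 41.1% in replicate 2. Nearly all of it was Syt1 (chr10:108497650-109010982, minus strand), whose level was 363 TPM in replicate 1 and 409 TPM in replicate 2, with 26921 and 32680 expected counts. The replicate 2 level was the higher of the pair. Syt1 ranked 94th among the 22015 nuclear protein-coding genes and made up 38.8 ± 0.878% of the summed member TPM. Its level was close to that of Vamp2, the vesicle SNARE, at a ratio of 0.946 in replicate 1 and 0.976 in replicate 2. Against Snap25, a SNARE of the plasma membrane, the ratio was 0.449 and 0.445, nearly the same in both libraries.

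Syt2 (chr1:134646677-134762593, plus strand), the fast sensor best known in brainstem, spinal cord and parvalbumin interneurons, had 11.03 TPM in replicate 1 and 15.2 TPM in replicate 2. Its expected counts were 1002 in replicate 1 and 1108 in replicate 2, so the gap in TPM was wider than the gap in counts. The Syt1 to Syt2 ratio of TPM was 40.1 in replicate 1 and 41.8 in replicate 2 in the alignment-free table, and 32.9 and 26.9 in the alignment-based one. Pvalb, the marker of parvalbumin interneurons, had 21.2 TPM in replicate 1 and 27.6 TPM in replicate 2, while Tac1, another marker of that list, had 15.1 and 2.73 TPM. The 5 markers of the list summed to 128 TPM in each library. By the exact binomial test described below, 2 of them passed as higher in replicate 1 and 3 as higher in replicate 2. Over all genes tested the shares that passed were 9.13% and 9.29%. That test reaches small differences where counts are high. The gene Ppp1r12b, which overlaps Syt2 on the opposite strand, had 3835 and 4241 expected counts. The kit is directional per the labels, but how strand was used in counting is not given in the sources used here.

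Syt9 (chr7:107370728-107548656, plus strand), known in mouse as a fast sensor of striatal and limbic neurons, had 3.58 TPM in replicate 1 and 2.79 TPM in replicate 2, from 216 and 154 expected counts. The credibility interval deposited with the gene table ran from 3.11 to 4.50 TPM in replicate 1 and from 2.31 to 3.48 TPM in replicate 2, so the intervals overlapped. Syt9 was the lowest member and ranked 11675th among nuclear protein-coding genes. It was the member with fewest counts and so the one least precisely measured.

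Syt7, Syt3, Syt5 and Syt17 hold the aspartate codon and are not known as sensors of fast release, and they held 28.5% of the summed member TPM in replicate 1 and 28.02% in replicate 2. Syt7 (chr19:10389090-10453180, plus strand), the high-affinity sensor of asynchronous release and of vesicle replenishment, had 116 TPM in replicate 1 and 128 TPM in replicate 2, with 7713 and 9408 expected counts. Syt1 exceeded Syt7 by 3.12 times in replicate 1 and 3.20 times in replicate 2.
Syt5 (chr7:4539765-4547541, minus strand), a member found on dense-core vesicles, had 92.4 TPM in replicate 1 and 97.9 TPM in replicate 2. It lay below Syt7 in both libraries although the genes adjoin in the order. Syt3 (chr7:44384102-44400187, plus strand), known in neurons for the calcium-dependent internalization of AMPA receptors, had 34.0 TPM in replicate 1 and 37.0 TPM in replicate 2. Syt17 (chr7:118380717-118448222, minus strand), also called B/K protein, lacks a transmembrane segment. It had 28.2 TPM in replicate 1 and 28.4 TPM in replicate 2, a closer pair than in the alignment-free table, where it had 35.4 and 29.9 TPM.

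Among the members without the aspartate codon, Syt11 (chr3:88744700-88775164, minus strand), known as an inhibitor of endocytosis in neurons, was the second member by level. It had 209 TPM in replicate 1 and 220 TPM in replicate 2, with 15243 and 17431 expected counts, and ranked 258th among nuclear protein-coding genes. Its close relative Syt4 (chr18:31437808-31447406, minus strand), found on dense-core vesicles and known to limit release of BDNF, had 43.9 TPM in replicate 1 and 44.4 TPM in replicate 2. The Syt11 to Syt4 ratio was 4.75 in replicate 1 and 4.96 in replicate 2. Syt13 (chr2:92915098-92956058, plus strand), a member whose C2 domains do not bind calcium, had 49.8 TPM in replicate 1 and 55.7 TPM in replicate 2. It lay above Syt4 in both libraries.

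The 7 other synaptotagmins were lower than most members, with a summed level of 57.8 TPM in replicate 1 and 63.0 TPM in replicate 2. Of these, 5 reached a TPM of at least 1 in both libraries. Syt16 led at 22.9 ± 0.368 TPM, followed by Syt12 at 12.6 ± 1.99, Syt14 at 12.1 ± 1.84, Syt10 at 8.43 ± 0.00 and Syt6 at 3.05 ± 0.587 TPM (SD, n = 2 each). Syt8 had 0.810 TPM in replicate 1 and 1.03 TPM in replicate 2 from 5 and 3 expected counts, and Syt15 had 0.470 and 0.280 TPM from 29 and 17. Of 12 relatives with C2 domains, 9 reached a TPM of 1 in both libraries, led by Rph3a, an effector of the vesicle GTPase Rab3, at 93.7 ± 3.83 TPM, then Esyt2, a tether of the endoplasmic reticulum to the plasma membrane, at 29.8 ± 1.49 TPM and Doc2b at 27.6 ± 3.97 TPM. All 12 genes of the release machinery reached a TPM of 1 in both libraries, from Sv2c at 10.4 ± 3.26 TPM to Snap25 at 864 ± 78.9 TPM.

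The members differed little between the libraries. Ratios are of expected counts scaled by TMM, replicate 1 over replicate 2, and the test is a two-sided exact binomial test with Benjamini-Hochberg adjustment over 16971 genes. By this test 5 of the 10 members differed, and over all genes tested the share was 18.4%. Syt1, Syt7, Syt11 and Syt13 were called higher in replicate 2, as were 9.29% of all genes tested. Syt9 was called higher in replicate 1, as were 9.13% of them. The test reaches small differences where counts are high, and the members called in replicate 2 had at least 3310 counts in each library. Scaled by the totals of the ERCC spike-ins, all 10 members differed, 9 of them higher in replicate 2 and Syt9 higher in replicate 1, and that scaling called 440 genes higher in replicate 1 and 9597 higher in replicate 2, against 1550 and 1577 with TMM. It shifted the median log2 ratio of all genes to -0.27. No member was more than 2-fold apart with TMM, against 2.01% of all genes. The median log2 ratio was -0.06 over the members and 0.001 over all genes tested.

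For Syt1, whose counts were 26921 and 32680, the log2 ratio was -0.15 with a 95% counting interval from -0.17 to -0.13 (exact binomial test, adjusted p = 4.79e-35). Syt7 had a log2 ratio of -0.16, with an interval from -0.20 to -0.11 (exact binomial test, adjusted p = 3.67e-11). Both were lower in replicate 1, at a fold of 0.900 for Syt1 and 0.896 for Syt7. Syt13, with 3310 and 3953 counts, had a log2 ratio of -0.13 (exact binomial test, adjusted p = 0.00198), and Syt11 one of -0.07 (exact binomial test, adjusted p = 6.42e-04). Of the 12 release machinery genes, 11 had a negative ratio, and 9 of these passed the test as higher in replicate 2, where 9.29% of all genes did. The remaining gene, Sv2c, passed it as higher in replicate 1 at a log2 ratio of 0.82 (exact binomial test, adjusted p = 2.31e-42). The 5 excitatory neuron markers, of which 4 passed the test and which summed to 2166 TPM in replicate 1 and 2531 TPM in replicate 2, moved the same way as Syt1, Syt7, Syt11 and Syt13, and their part in these differences was not tested.

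Syt9 was the only member called higher in replicate 1, and its ratio of scaled counts was the furthest from 0 of the 10. With TPM ratios at a pseudocount of 1 Syt2 was further, at -0.43 against 0.27 for Syt9. With ERCC totals Syt7, Syt1, Syt13 and Syt3 were further, at -0.43, -0.42, -0.395 and -0.385 against 0.35 for Syt9. With TMM the log2 ratio of Syt9 was 0.62 with an interval from 0.31 to 0.92 (exact binomial test, adjusted p = 6.42e-04), a fold of 1.53. Among the other synaptotagmins tested, only Syt6 differed, also higher in replicate 1, with 253 counts in replicate 1 and 206 in replicate 2 (log2 ratio 0.42, exact binomial test, adjusted p = 0.0138). The 8 striatal markers moved with Syt9, with a summed 211 TPM in replicate 1 and 78.8 TPM in replicate 2 and a median log2 ratio of 1.77, as did the choroid plexus markers at 2.38. The ratios of all 5 oligodendrocyte, all 5 microglia and all 4 endothelium markers were above 0 too, at medians of 0.04, 0.09 and 0.27. Those of all 5 excitatory neuron markers were below 0. The part of any of these cell types in the Syt9 difference was not tested.

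The other 5 members did not pass the threshold. Syt3, with 1254 and 1488 counts, had a log2 ratio of -0.12 and an interval from -0.23 to -0.01, which excludes 0 before adjustment only (exact binomial test, adjusted p = 0.125). The intervals of Syt5, from -0.14 to 0.03, of Syt4, from -0.06 to 0.09, of Syt17, from -0.08 to 0.13, and of Syt2, from -0.14 to 0.11, all included 0. The adjusted p-values of these 4 ran from 0.415 to 0.910 (exact binomial test). Differences within these intervals are not excluded.

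**Figure D2:**
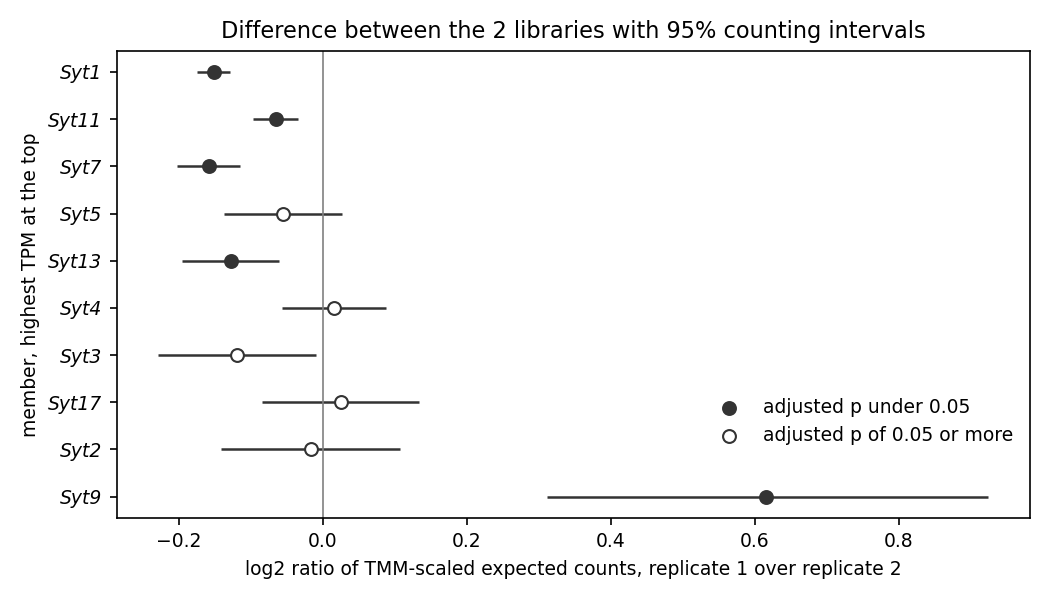
Log2 ratio of TMM-scaled expected counts, replicate 1 over replicate 2, for the 10 members, with 95% counting intervals as lines and filled points where the adjusted p was under 0.05. Syt1, Syt7, Syt11 and Syt13 lie left of 0 with narrow intervals, and Syt9 lies right of 0 at 0.62 with the widest interval.

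The annotation gives the members 52 transcripts. Syt4 and Syt13 have 1 each. Of the 8 members with several transcripts, 6 had the same leading transcript in both quantifications and both libraries. The share was 73.0% over all genes that have several transcripts and reached 10 TPM in both libraries. Taking each library alone, 7 of the 8 members had the same leader in both tables, where 80.6% of genes did in replicate 1 and 81.4% in replicate 2. Syt9 lies under 10 TPM and would not enter those genes, and of the other 7 members 6 had the same leader in both tables in replicate 1 and 7 in replicate 2. The leader was Syt1-201, Syt2-201, Syt5-201, Syt7-202, Syt11-201 and Syt17-201 in these 6 genes. Its share of the gene's TPM was lower by the alignment-free estimate for 5 of the 6. For Syt1-201 it was 73.1 ± 0.774% in the alignment-free and 80.3 ± 0.0354% in the alignment-based table (SD, n = 2 each). For Syt11-201 it was 76.5 ± 2.59% and 83.9 ± 1.64% in the same order of tables, for Syt5-201 68.9 ± 0.375% and 77.2 ± 0.240%, and for Syt17-201 55.0 ± 11.7% and 86.0 ± 1.23%. Syt2-201 went the other way, at 73.9 ± 3.30% in the alignment-free and 59.1 ± 11.1% in the alignment-based table.

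The leading transcripts of Syt3 were alternatives with the same coding sequence. In the alignment-free table Syt3-202 led in both libraries, at 44.1% of the gene's TPM in replicate 1 and 42.4% in replicate 2, and Syt3-201 had 6.05% and 4.95%. In the alignment-based table Syt3-201 led in replicate 1, at 40.7% against 35.6% for Syt3-202, and Syt3-202 led in replicate 2 at 49.6%. The coding sequence of 1761 bases is shared by Syt3-201, Syt3-202 and Syt3-203, so among these models the tables split the reads by untranslated ends. Syt3-206, a processed transcript of 431 bases, had 22.6% and 21.7% in the alignment-free table. In the alignment-based table Syt3-206 had 10.7% and 10.1%. Syt3-204, of 442 bases and without a complete coding sequence, had 13.5% and 13.1% in the alignment-free table. In the alignment-based table Syt3-204 had 8.72% and 6.22%. Among the non-leading transcripts, Syt11-205, a protein-coding model without a complete coding sequence, had 13.97% and 12.2% in the alignment-free and 11.97% and 10.8% in the alignment-based table.

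Short models carried much TPM on few counts. A transcript under 500 bases needs few reads for a high TPM. In the alignment-based table such models held 32.4% of the Syt2 TPM on 2.27% of its counts, 22.8% of the Syt5 TPM on 5.17% and 17.9% of the Syt3 TPM on 2.92%. The gap between the libraries in Syt2 came with 1 of them. Syt2-203, of 383 bases, had 11.7 counts in replicate 1 and 36.3 in replicate 2, which made 20.6% and 43.4% of the gene's TPM. Syt5-202, of 397 bases, had 101 and 107 counts and 20.2% and 19.0% of the TPM, and Syt7-206, a retained intron model of 479 bases, 15.8% and 14.4%. In the alignment-free table Syt17-205, of 362 bases, had 31.1% in replicate 1 and 9.68% in replicate 2 on 35.6 and 9.91 counts. It was chosen for naming after its values were seen.

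Levels were also summed over the transcripts with a complete annotated coding sequence, a step added after the data were seen, and this brought the tables closer for Syt3 and Syt2. Over all transcripts, Syt3 had 49.7 ± 3.96 TPM in the alignment-free and 35.5 ± 2.09 TPM in the alignment-based table (SD, n = 2 each), and it stood above Syt4 and Syt13 in the alignment-free order. Over complete coding transcripts Syt3 had 26.8 ± 3.81 and 29.2 ± 2.51 TPM, below Syt4 in both tables. Syt2 had 9.21 ± 0.890 TPM in the alignment-free and 13.1 ± 2.98 TPM in the alignment-based table over all transcripts, but 8.23 ± 0.160 and 8.63 ± 0.184 TPM over complete coding ones. The order of the 10 members over complete coding transcripts was that of the gene table in both tables. The tables moved apart for Syt17, at 32.6 ± 3.87 and 28.3 ± 0.113 TPM over all transcripts and at 20.2 ± 2.70 and 26.4 ± 1.75 TPM over complete coding ones. For Syt17 this depends on 1 model that the sum leaves out. Syt17-202 is annotated as incomplete but has 1407 coding bases, against 1410 in Syt17-201. It had 5.79 TPM in replicate 1 and 4.53 TPM in replicate 2 in the alignment-free table, and 2.55 and 0.64 TPM in the alignment-based table. They also moved apart for Syt1, from 378 and 386 TPM to 294 and 327 TPM in the same order of tables. For Syt5 they went from 98.3 and 95.1 TPM to 67.7 and 73.4 TPM. Syt9 came closer, from 2.76 and 3.19 TPM to 1.96 and 2.085 TPM. The sum over complete coding transcripts was lower than that over all transcripts by more than 1.5 times for Syt3 and Syt17 in the alignment-free table and for Syt2 and Syt9 in the alignment-based one.

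**Figure D3:**
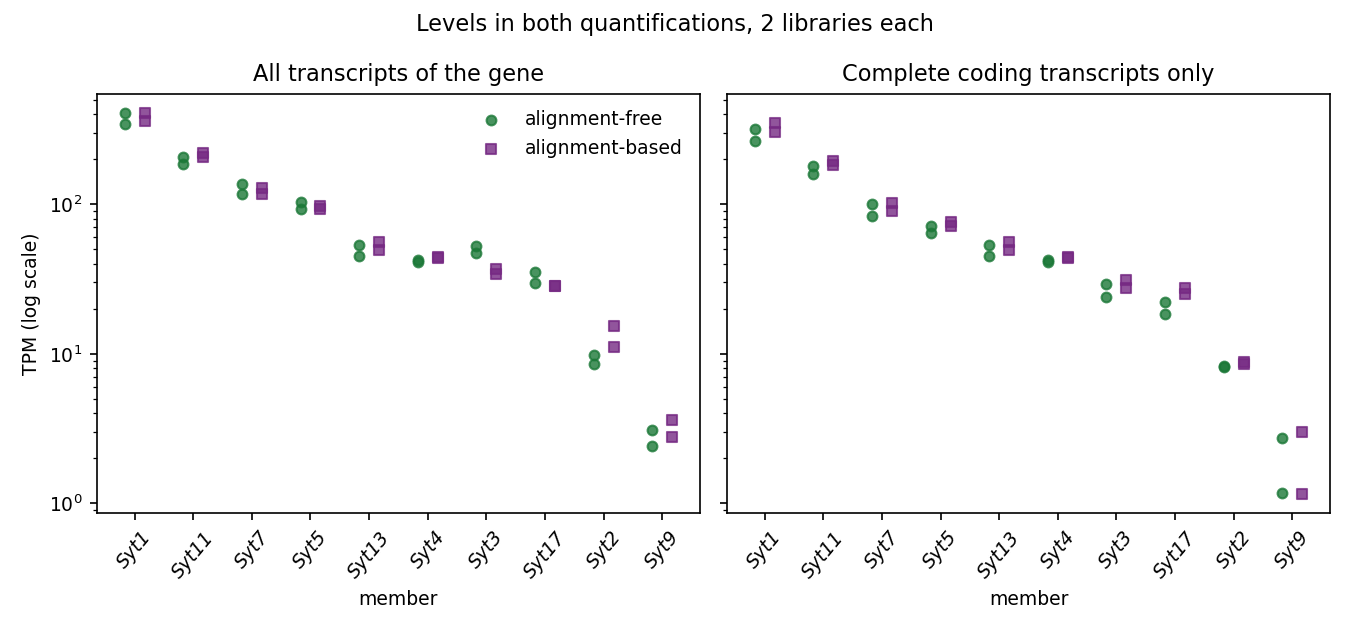
TPM on a log axis of the 10 members in the alignment-free (circles, left) and alignment-based (squares, right) tables, 2 libraries each, over all transcripts of the gene in the left panel and over complete coding transcripts in the right panel. Syt3 and Syt2 differ between the tables in the left panel and lie close in the right one, and the order of the members in the right panel is the same in both tables.

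At the gene level the counts of the tables were close. The alignment-free count was 1.09 to 1.19 times the alignment-based count over the 10 members (mean of 2 libraries). The median over protein-coding genes with at least 500 counts was 1.14 in each library. The 9 members with at least 500 counts lay between the 5th and 95th percentiles of those genes, at 1.06 and 1.24, in both libraries. In TPM, the ratio of the tables ranged from 0.711 for Syt2 to 1.40 for Syt3.

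Syt1 and Syt2 each have a pair of RefSeq starts, and the promoters of Syt1 hold fewer CG than those of Syt2. The first exons at the RefSeq starts of Syt1 begin 1864 bases apart. The upstream start, used by Syt1-201, Syt1-202 and Syt1-204, had 78.8 ± 0.228% of the gene's TPM in the alignment-free and 85.7 ± 0.424% in the alignment-based table (SD, n = 2 each). The downstream start, used by Syt1-206, a processed transcript with no coding sequence, and by Syt1-203, had 17.1 ± 0.0590% and 11.2 ± 0.187%, with Syt1-203 at 0 in both. Both shares held within 1 percentage point between the libraries. They are shares of TPM, which is scaled for length, and Syt1-206 is 1113 bases long against 4745 for Syt1-201. In the alignment-based table Syt1-206 had 740 expected counts in replicate 1 and 913 in replicate 2, where the gene had 26921 and 32680. Syt1-205, a retained intron model that begins further along the gene, had 4.13 ± 0.287% in the alignment-free and 3.07 ± 0.608% in the alignment-based table. Shown are the windows from 250 bases before to 50 after each RefSeq start (GRCm38.p6, which is mm10), with each CG in capitals, since the density of CG divides mouse promoters into classes. They are chr10:109010926-109011225 and chr10:109009062-109009361 on the minus strand for Syt1.
Syt1 promoter 1: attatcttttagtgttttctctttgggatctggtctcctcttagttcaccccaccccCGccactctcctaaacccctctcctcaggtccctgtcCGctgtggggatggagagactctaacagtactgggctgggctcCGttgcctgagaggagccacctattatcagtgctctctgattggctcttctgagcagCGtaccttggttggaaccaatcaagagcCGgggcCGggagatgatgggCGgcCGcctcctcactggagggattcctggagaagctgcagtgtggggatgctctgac
Syt1 promoter 2: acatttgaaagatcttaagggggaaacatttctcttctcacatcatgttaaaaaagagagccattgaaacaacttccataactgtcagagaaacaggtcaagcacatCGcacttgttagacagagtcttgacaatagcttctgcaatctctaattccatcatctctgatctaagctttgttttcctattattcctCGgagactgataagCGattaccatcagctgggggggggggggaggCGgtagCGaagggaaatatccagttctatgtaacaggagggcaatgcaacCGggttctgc
Upstream promoter 1 held 8 CG and downstream promoter 2 held 6, against a median of 7 over all 32851 promoter windows.

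For Syt2 the starts lie 62623 bases apart. The downstream start, that of Syt2-201, had 73.9 ± 3.30% of the gene's TPM in the alignment-free and 59.1 ± 11.1% in the alignment-based table. The upstream start, that of Syt2-203 and Syt2-204, had 25.3 ± 2.12% and 40.4 ± 10.5%, with the library spread in the alignment-based table coming with Syt2-203. Syt2-202, which begins further along the gene, had 0 counts in replicate 1 and 1 count in replicate 2 in both tables. The windows are chr1:134646362-134646661, whose start lies 65 bases from that of Syt2-203, and chr1:134709050-134709349, on the plus strand.
Syt2 promoter 1: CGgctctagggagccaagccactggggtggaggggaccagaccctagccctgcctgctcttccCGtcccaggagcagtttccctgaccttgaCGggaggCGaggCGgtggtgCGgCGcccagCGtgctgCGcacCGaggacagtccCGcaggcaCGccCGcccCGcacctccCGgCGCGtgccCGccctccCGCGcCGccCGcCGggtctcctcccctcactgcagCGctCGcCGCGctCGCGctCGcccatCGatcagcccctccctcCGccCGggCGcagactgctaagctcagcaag
Syt2 promoter 2: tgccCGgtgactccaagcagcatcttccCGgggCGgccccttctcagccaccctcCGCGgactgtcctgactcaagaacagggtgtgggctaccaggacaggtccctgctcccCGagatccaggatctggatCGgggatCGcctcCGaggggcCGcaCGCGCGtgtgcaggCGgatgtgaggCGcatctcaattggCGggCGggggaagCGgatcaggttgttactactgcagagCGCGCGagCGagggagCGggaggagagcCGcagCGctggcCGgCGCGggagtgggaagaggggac
They held 34 and 28 CG, more than 92.3% and 85.8% of all promoter windows, so both Syt2 windows are rich in CG while both Syt1 windows are near the median. The motif TATAAA, searched on both strands, was in none of the 4 windows and in 13.6% of all windows. The motif CCAAT, searched on both strands, was in Syt1 promoter 1 at 2 places and in Syt2 promoter 2 at 1, and in 37.4% of all windows. RefSeq windows were matched for 5 of the 10 members, Syt1, Syt2, Syt3, Syt9 and Syt11.

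Syt7 has 15 annotated transcripts, more than any other member, and most of its coding models differ in the linker between the transmembrane segment and the C2 domains. There are 4 variable linker exons, called A to D here in their order along the gene, of 132, 228, 369 and 123 bases. Each is a whole number of codons. A further alternative exon, called the decay exon here, is found in the transcripts annotated for nonsense-mediated decay. It brings a stop codon soon after its start, shown in capitals in the last of these lines (mm10 chromosome 19, plus strand, GENCODE M21). Exons A and B are shown since the patterns below turn on them.
Variable exon A, chr19:10421757-10421888: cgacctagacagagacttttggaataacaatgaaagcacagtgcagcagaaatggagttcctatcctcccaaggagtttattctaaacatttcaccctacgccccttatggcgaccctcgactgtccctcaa
Variable exon B, chr19:10422785-10423012: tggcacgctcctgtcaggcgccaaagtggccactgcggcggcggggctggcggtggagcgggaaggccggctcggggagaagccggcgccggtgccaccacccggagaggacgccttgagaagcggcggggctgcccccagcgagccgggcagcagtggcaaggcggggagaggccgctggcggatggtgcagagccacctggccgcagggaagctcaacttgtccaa
Decay exon to its stop, chr19:10422395-10422416: cccgctcttcctccgtcgtTAA
The pattern with exons A, C and D, that of Syt7-202, led with 38.4 ± 1.44% of the Syt7 TPM in the alignment-free and 45.8 ± 1.73% in the alignment-based table (SD, n = 2 each). The pattern with none of the 4 exons, that of Syt7-201, the short form with a coding sequence of 1209 bases, had 21.3 ± 1.67% and 17.6 ± 1.21%. The long form Syt7-202 thus exceeded the short form in both libraries of both tables.

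Exon B was in the minority. Complete coding transcripts with it held 11.7 ± 2.56% in the alignment-free and 12.2 ± 1.499% in the alignment-based table, close to each other. The tables placed these reads on different models. The pattern with all 4 exons had 4.23 ± 1.95% in the alignment-free and 9.25 ± 1.73% in the alignment-based table, and the pattern with B alone had 7.07 ± 0.952% and 2.82 ± 0.419%. Transcripts with the decay exon had 11.5 ± 0.601% and 6.05 ± 0.413%. The difference between the tables exceeded the spread of the libraries for these 3 values, and the difference for exon B as a whole did not.

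**Figure D4:**
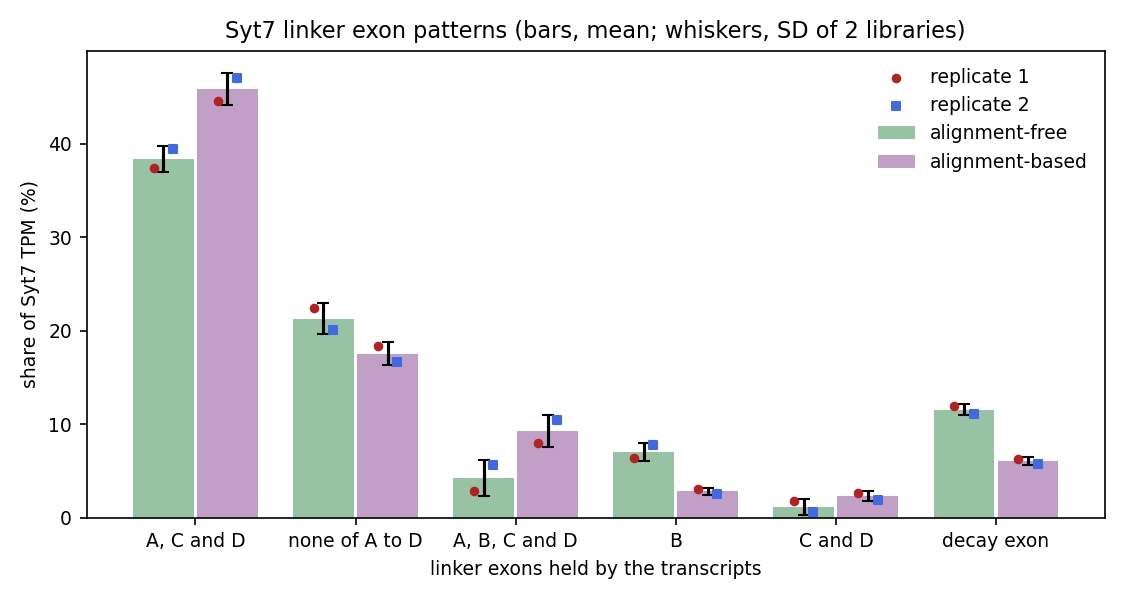
Share of the Syt7 TPM in percent held by transcripts with each pattern of linker exons, with bars for the mean of 2 libraries in the alignment-free (left) and alignment-based (right) table, whiskers for the SD and points for each library. Exons A, C and D together lead in both tables at 38.4% and 45.8%, and the pattern with all 4 exons and that with B alone trade places between the tables.

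The gene-level difference in Syt9 joined opposite differences of its transcripts. The transcript test, an exact binomial test adjusted over all transcripts and added after the data were seen, called 19 of the 35 member transcripts tested in the alignment-free and 18 of the 33 in the alignment-based table. Over all transcripts tested the shares were 34.1% and 34.7%. Of the members' transcripts 13 were called in both tables, all in the same direction. The share called in both tables was not computed over all transcripts. Both tables come from the same 2 libraries, so their agreement is not independent. Counting error does not cover the uncertainty of assigning reads to transcripts, so these p-values are too small.

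Syt9-201, the model with the complete coding sequence of 1473 bases, had 238 counts in replicate 1 and 103 in replicate 2 in the alignment-free table, and 204 and 82.8 in the alignment-based table. Its log2 ratio was 1.32 in the alignment-free table (exact binomial test, adjusted p = 6.50e-15) and 1.42 in the alignment-based one (adjusted p = 3.11e-14). Syt9-205, a retained intron model of the 3′ part of the gene, had 0 counts in replicate 1 and 59.8 in replicate 2 in the alignment-free table, and 10.01 and 70.03 in the alignment-based table (exact binomial test, adjusted p = 2.70e-16 and 3.04e-10). It had more reads in replicate 2 in both tables. In the alignment-based table Syt9-205 had 6.33% of the gene's TPM in replicate 1 and 53.2% in replicate 2, where it led. The level of complete coding Syt9 transcripts was 2.74 TPM in replicate 1 and 1.17 TPM in replicate 2 in the alignment-free table, and 3.02 and 1.15 TPM in the alignment-based table.

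The models can be told apart where the reads enter an exon that both hold. Shown are 15 bases before it in capitals, spliced from the exon before in Syt9-201 and intronic in Syt9-205, and the 15 first bases of the shared exon (mm10 chromosome 7, plus strand, from position 107504162).
Syt9-201: TAACAGGAGCATCAGatccctacgtgaaag
Syt9-205: CTCATGCCTGTGCAGatccctacgtgaaag
The deposited tables hold no reads by position, so junction reads were not counted here.

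**Figure D5:**
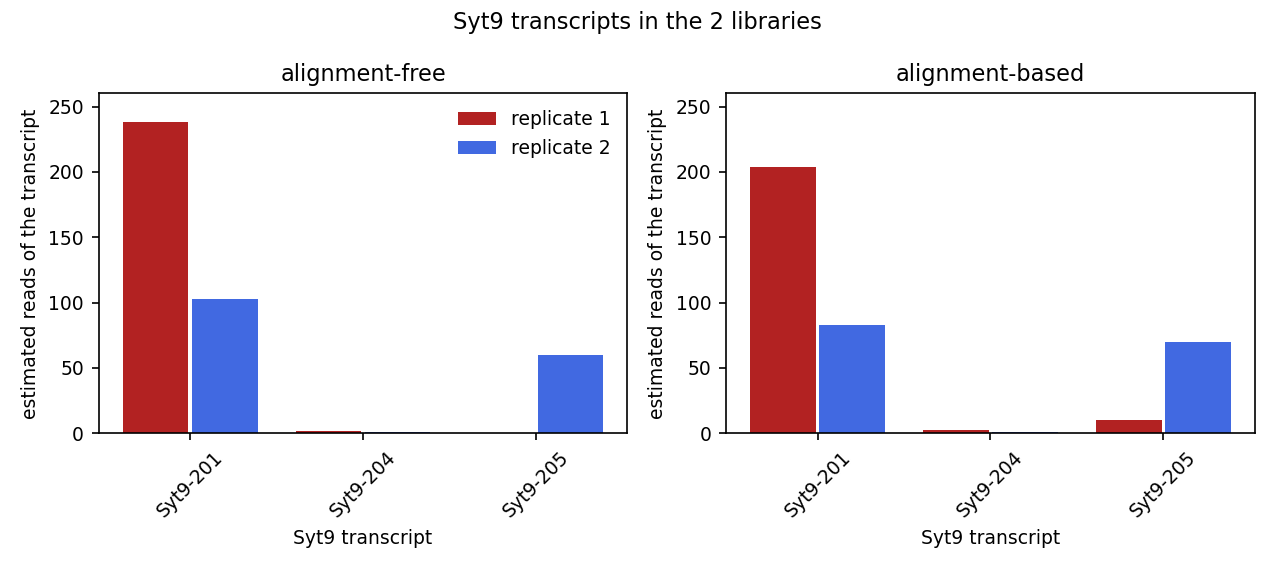
Estimated reads of the Syt9 transcripts with any reads in the alignment-free (left) and alignment-based (right) tables, with replicate 1 left of replicate 2. Syt9-201 is higher in replicate 1 and Syt9-205 in replicate 2 in both tables.

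In 3 further members, Syt1, Syt11 and Syt17, the gene-level ratio also joined transcripts that moved in opposite directions in both tables. Syt1-204, a retained intron model, was higher in replicate 1, with 337 counts in replicate 1 and 289 in replicate 2 in the alignment-free table and 285 and 233 in the alignment-based table. Syt1-201, which holds most counts of the gene, was higher in replicate 2, at a log2 ratio of -0.13 in the alignment-free and -0.14 in the alignment-based table. Syt11-202, a model with a short coding sequence of 372 bases, was higher in replicate 1, with 431 counts in replicate 1 and 184 in replicate 2 in the alignment-free table and 630 and 506 in the alignment-based table. Syt11-201 was higher in replicate 2, with 14526 and 17135 counts and with 13980 and 16204 counts in the same order. In Syt17, Syt17-202 was higher in replicate 1, with 325 and 256 counts in the alignment-free and 113 and 30.3 in the alignment-based table. Syt17-203 was higher in replicate 2, with 66.8 and 129 counts and with 31.2 and 89.4. All 6 passed the transcript test in both tables, with the largest adjusted p at 0.0129 (exact binomial test), and those that are not leading transcripts were named after their values were seen.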

How the data were processed

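Per the labels, each directional library was made from 300 ng of total RNA with ERCC spike-ins after reduction of ribosomal RNA. Alignments to mm10 with GENCODE M21 and an alignment-free index gave the tables. Neither aligner nor quantifier is named in the sources used here. Expected counts, as deposited, estimate the reads of each gene or transcript. TPM values were scaled to length and depth before they were deposited, per the file headers. A deposited percent column gives each transcript's share of the gene's TPM. The deposited signal columns give bounds of a credibility interval of TPM, whose level is not stated in the table.

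Gene-level alignment-free values were summed from transcripts here. Expected counts were rounded, scaled by TMM (edgeR 4.0.16, R 4.3.3, a prior count of 0.5 for ratios) and compared between the 2 libraries by an exact binomial test for genes with a mean of at least 20 counts, adjusted at 0.05. Counting intervals are exact at 95%; intervals cover counting error only. A count of 0 is compatible with a level of up to 3 counts (0.115 CPM in replicate 1, 0.105 CPM in replicate 2). In simulated counts of 16977 genes, 85.5% of 200 genes made 2-fold apart were called, and 0.0179% of unchanged ones. These counts were Poisson draws that varied by counting error alone, as the test assumes. The rates therefore do not show how often the test calls genes when libraries vary beyond counting error. DESeq2 1.42.0 gave other size factors. Python 3.11.15, numpy 2.4.6, pandas 2.3.3, scipy 1.17.1, Biopython 1.88 and matplotlib 3.10.9 were used for the rest. Biopython aligned the translated coding sequences to that of Syt1.

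Members and lists were chosen with earlier results of these data known. Named were all members, the other synaptotagmins, up to 3 genes of the relatives and of the release machinery, up to 2 markers of a list, and transcripts that led or held at least 10% of the TPM in both libraries of a table; other transcripts are stated to have been chosen after seeing values, or are named for the linker exons or starts they hold.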

Additional observations from a re-analysis of the deposited data

How the results depend on the processing

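No paired analysis was possible because there was 1 group of 2 libraries. The count of 10 members at a TPM of at least 1 was 10 at a TPM of 0.5, at 20 counts, in the alignment-free table and without either replicate, and 9 at a TPM of 5, where Syt9 fell out. The count of 5 members that differed was 5 with DESeq2 size factors, library size, both count filters and alignment-free counts, and the members were the same ones. With ERCC totals it was 10, of which 9 were higher in replicate 2 and Syt9 in replicate 1. That scaling moved the median log2 ratio of all genes to -0.27 and made 440 genes higher in replicate 1 and 9597 higher in replicate 2, against 1550 and 1577 with TMM. The spike-ins held 0.541% of counts in replicate 1 and 0.448% in replicate 2. Uncalled ratios near 0 changed sign. Syt4, at 0.02 with TMM, was -0.0019 with DESeq2 size factors, -0.25 with ERCC totals, and -0.017 and -0.018 with TPM at pseudocounts of 1 and 0.1. Syt17, at 0.03, was -0.24 with ERCC totals, -1.8e-04 with alignment-free counts, and -0.0079 and -0.0081 with those pseudocounts. Syt2, at -0.02, was 0.027 with alignment-free counts, -0.28 and called with ERCC totals, and -0.43 and -0.46 with those pseudocounts. Syt9, at 0.62, was 0.27 and 0.35 with those pseudocounts and 0.35 with ERCC totals. The Syt1 share of 38.8% was 43.9% of summed expected counts, which are not scaled for length, and 38.2% to 39.4% with 1 replicate left out. Shares moved by more than their SD for 7 of the 10 members with summed expected counts and for 7 with alignment-free TPM. With TPM rescaled to nuclear protein-coding genes the levels of all 10 members moved. Syt1 went from 386 to 854 TPM and Syt9 from 3.19 to 7.07 TPM. By CPM in place of TPM, which also ignores length, 5 of 10 members kept their place in the order; by alignment-free TPM 7 did. Without a replicate the number of members with the same leading transcript in both tables was 7 each time, against 6. Ratios need both libraries, so none was left out for them. With 2 libraries the SDs are imprecise, and small differences could be called only for members with high counts.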
